A study of Homo sapiens with 6 samples.

Results

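The regions described here are the H3K27me3 peaks that were listed in JMJD3 knockout HL-60 cells and that no listed parental peak touched. They were chosen by measured values, the positions of the H3K27me3 peaks called in both genotypes: a peak of the knockout list was taken when not even 1 bp of it was overlapped by a peak of the parental list. That left 2278 of the 3234 distinct knockout peaks, 70.4% (95% Wilson interval 68.8 to 72.0), covering 2.48 Mb or 59.6% of the listed knockout length. The 4 deposited lists hold 65225 peaks in all. The mirror set, parental peaks with no knockout overlap, held 2603 of 3578 peaks (72.8%). Both percentages are set by the rule, and nothing is read from them.

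HL-60 is a human promyelocytic leukaemia cell line. The tested cells carried a knockout of JMJD3, and the cells they were set against were parental HL-60. No treatment separates them in the labels. H3K27me3 and H3K4me3 were each profiled by chromatin immunoprecipitation and sequencing (ChIP-seq) in 1 library per genotype, and the 2 inputs were not analysed here. The labels do not say whether the knockout was 1 clone or a pool, nor how the gene was disrupted. With 1 library per genotype nothing here could be checked on a replicate, and a genotype and a library cannot be told apart. Read counts and peak heights are not in the lists, so depth is unknown and every interval covers counting error only. Neighbouring peaks are not independent, which these intervals do not take in.

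The H3K27me3 libraries were identified by their titles, since their antibody label names H3K4me3. The H3K4me3 lists bear on this directly. Of the 2278 knockout-only H3K27me3 peaks, 16 (0.702%, 0.433 to 1.14) were overlapped by a peak of the knockout H3K4me3 list and 25 (1.10%, 0.744 to 1.62) by one of the parental H3K4me3 list. The knockout-only H3K27me3 peaks were thus almost separate in position from the listed H3K4me3 peaks of both genotypes. For knockout H3K27me3 peaks that overlapped a parental one, the shares were 2.93% and 4.60%.

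H3K27me3 is laid down by Polycomb repressive complex PRC2, whose catalytic subunit is EZH2, and it marks genes that are kept silent. JMJD3, the product of KDM6B, and its relative UTX, the product of KDM6A, take the methyl groups off again. In blood cells the mark typically lies over developmental regulators and over genes of other tissues, often as domains many kilobases long. H3K4me3 marks the promoters of active or poised genes, and a promoter with both marks is called bivalent.

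Of all 18086 gene symbols in the 4 lists, 71 (0.393%) had a start site under a knockout-only peak. The sequences of the peaks themselves were not read here, because no hg19 genome was used. RefSeq promoters of GRCh38.p14 stand in for 6 of these genes, to show the range of promoter types under such peaks; in each the 250 bases before the listed start site lay inside the hg19 peak. The choice of these 6 was made after their values were seen. Each line gives the 250 bases before the start site of the RefSeq table, 5′ to 3′ on the gene's strand, with every CG dinucleotide in capitals. The start site of the table can differ from the one in the lists.
PTH, chr11:13496182-13496431, minus strand: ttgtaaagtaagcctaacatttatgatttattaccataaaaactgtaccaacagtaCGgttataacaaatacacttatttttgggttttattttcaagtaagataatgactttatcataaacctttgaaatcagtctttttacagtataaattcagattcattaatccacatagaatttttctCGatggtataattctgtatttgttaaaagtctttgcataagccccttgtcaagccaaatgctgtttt
OR4L1, chr14:20059795-20060044, plus strand: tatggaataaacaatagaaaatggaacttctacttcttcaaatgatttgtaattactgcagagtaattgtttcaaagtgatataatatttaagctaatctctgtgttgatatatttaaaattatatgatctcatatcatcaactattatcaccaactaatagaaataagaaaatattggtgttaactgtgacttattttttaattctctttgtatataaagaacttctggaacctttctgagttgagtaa
NEUROD4, chr12:55019724-55019973, plus strand: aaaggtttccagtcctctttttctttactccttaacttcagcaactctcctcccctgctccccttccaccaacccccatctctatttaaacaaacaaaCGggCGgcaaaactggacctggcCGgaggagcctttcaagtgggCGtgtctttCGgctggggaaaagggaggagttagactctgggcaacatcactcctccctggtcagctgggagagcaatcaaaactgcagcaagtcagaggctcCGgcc
SCGN, chr6:25651965-25652214, plus strand: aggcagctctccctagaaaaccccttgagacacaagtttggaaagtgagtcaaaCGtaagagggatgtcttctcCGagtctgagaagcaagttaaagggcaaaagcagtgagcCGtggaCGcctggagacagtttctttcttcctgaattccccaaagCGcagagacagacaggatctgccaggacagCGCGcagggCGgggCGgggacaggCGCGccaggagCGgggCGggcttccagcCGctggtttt
RXRG, chr1:165445127-165445376, minus strand: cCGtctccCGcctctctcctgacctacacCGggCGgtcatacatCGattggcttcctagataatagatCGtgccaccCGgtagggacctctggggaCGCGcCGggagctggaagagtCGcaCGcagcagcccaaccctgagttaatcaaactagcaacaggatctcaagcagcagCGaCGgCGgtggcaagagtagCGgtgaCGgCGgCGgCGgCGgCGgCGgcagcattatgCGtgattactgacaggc
DUSP1, chr5:172771196-172771445, minus strand: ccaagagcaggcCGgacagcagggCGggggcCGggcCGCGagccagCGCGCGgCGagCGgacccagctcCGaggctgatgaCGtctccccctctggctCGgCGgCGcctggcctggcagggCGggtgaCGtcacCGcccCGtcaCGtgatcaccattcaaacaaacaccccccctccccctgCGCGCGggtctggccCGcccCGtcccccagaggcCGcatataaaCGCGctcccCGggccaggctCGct

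These 6 promoters ran from almost no CG to dense CG islands. OR4L1, an olfactory receptor gene, had 0 CG dinucleotides and 25.2% G or C, and PTH, which encodes parathyroid hormone, had 2 and 28.0%. NEUROD4, a neuronal basic helix-loop-helix factor, had 6 and 53.6%, and SCGN, a calcium-binding protein of endocrine cells, had 14 and 57.6%. RXRG, a retinoid X receptor, had 24 and 62.0%. DUSP1, a stress-induced phosphatase of MAP kinases, had 30 and 74.4%. The median of all 27305 promoters of the table was 11 CG dinucleotides and 58.0% G or C. The motif TATAAA, searched on both strands, was found in PTH, OR4L1 and DUSP1 and in 11.1% of all promoters. A count over all 71 genes was void, because only 51 (71.8%) matched the table, under the 80% needed.

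A pair of related microRNA genes lay in the same cluster of knockout-only peaks, and their 5p mature sequences are shown because the 5p seeds are identical. Their 3p products, not shown, have differing seeds. The seed (bases 2 to 8) is in capitals, from RefSeq, GRCh38.p14.
hsa-miR-30a-5p, chr6:71403595-71403616, minus strand: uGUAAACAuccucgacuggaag
hsa-miR-30c-5p, chr6:71377003-71377025, minus strand: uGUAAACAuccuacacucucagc

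Knockout-only peaks were narrower than the knockout peaks that overlapped a parental one. Their median width was 929 bp (95% interval 896 to 968), with quartiles of 582 and 1367 bp and a range from 298 to 6998 bp. The 956 overlapping knockout peaks had a median of 1382 bp, and the parental-only peaks one of 811 bp. A wider peak has more chance of being touched, so width is part of the rule. The share of knockout peaks without a parental overlap was 82.7% under 500 bp (449 of 543), 78.3% from 500 to under 1000 bp, 70.5% from 1000 to under 2000 bp, 46.3% from 2000 to under 4000 bp and 20.7% (13.4 to 30.7) at 4000 bp or more (17 of 82). Parental peaks ran the same course, from 85.3% in the narrowest class to 14.3% in the widest.

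**Figure D1:**
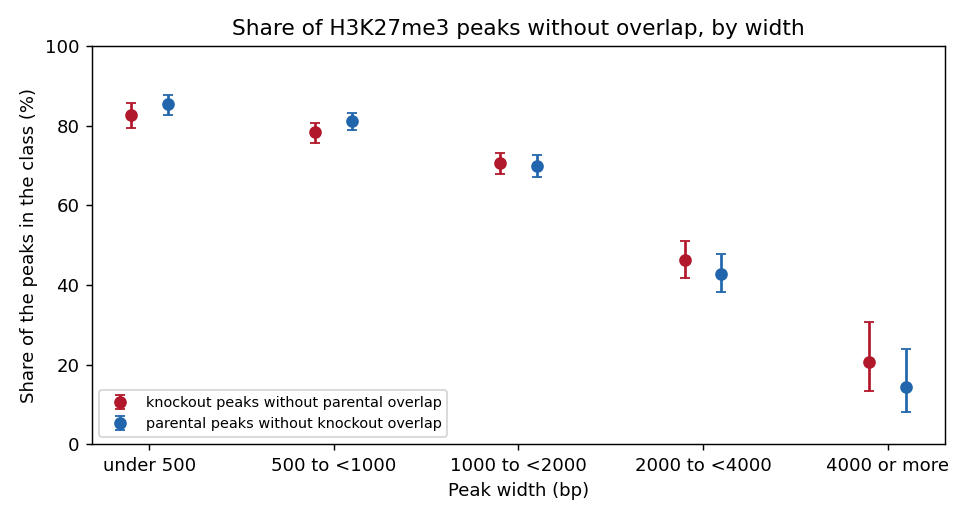
Share of H3K27me3 peaks without any overlap by a peak of the other genotype (y axis, percent) by peak width in bp (x axis), for knockout peaks (red, left of each pair) and parental peaks (blue). Points are shares and bars 95% Wilson intervals; both series fall with width, to 20.7% for knockout and 14.3% for parental peaks of 4000 bp or more.

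The widest knockout-only regions lay at genes of many tissues. The widest of all, 6998 bp at chr11:128887792-128894789, ran over a start site of ARHGAP32, a GTPase-activating protein of neurons, and lay 135380 bp from the nearest parental peak. PLAG1, a zinc finger oncogene, had one of 6646 bp and the pseudogene ANXA2P2 one of 6334 bp (chr9:33635054-33641387). SLCO1C1, a transporter of thyroid hormone, had one of 5302 bp and ABCC9, a subunit of potassium channels, one of 4932 bp. The next were nearest to DEFB126, an epididymal defensin (4893 bp), CCDC181 (4513 bp), IGF2BP2, an RNA-binding protein of fetal tissues (4460 bp), MIR4794 (4309 bp) and TP53AIP1 (4245 bp). Of these 10, DEFB126 was closest to a parental peak, at 14855 bp. ARHGAP32 and TP53AIP1 are neighbours on chromosome 11, where the 3 knockout-only peaks of ARHGAP32 summed to 12807 bp.

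Many knockout-only peaks lay right beside parental regions, and many lay far from any, with 704 (30.9%) within 5 kb and 917 (40.3%) beyond 100 kb. The distance to the nearest parental peak had a median of 23314 bp (95% interval 19354 to 28797), with quartiles of 3343 and 595464 bp. Within 1 kb were 254 peaks (11.2%), from 1 to 5 kb 450 (19.8%), from 5 to 20 kb 392 (17.2%) and from 20 to 100 kb 265 (11.6%). A further 475 (20.9%) lay from 100 kb to 1 Mb away and 442 (19.4%) beyond 1 Mb. Parental-only peaks had 288 (11.1%) within 1 kb of a knockout peak but 207 (7.95%) beyond 1 Mb. Their median distance was 14820 bp (13220 to 16958). Width changed little with distance, from a median of 838 bp within 1 kb to 983 bp beyond 1 Mb.

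At the edge of the rule, peaks were kept or left out by single bases. The knockout-only peak nearest KIAA1549L directly adjoined a parental peak, that of PAWR, an apoptosis regulator, lay 1 bp away and that of MOBP, a myelin protein gene, 2 bp. Just outside the rule, knockout peaks nearest KLHL32 and HEY2, a Notch target, were overlapped by 1 bp, and one nearest VNN2 by 5 bp.

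The deposited peak numbers show how much of the parental peak set the list leaves out. Numbers followed genome order with 0 exceptions in every list, and ran to 15618 in the knockout and 17383 in the parental H3K27me3 list. Only 20.7% and 20.6% of those numbers had a line, against 90.1% and 86.9% for H3K4me3. A gap in the parental numbers between neighbouring listed peaks was therefore read as parental peaks without a line. Why they have no line is not stated. All listed peak centres were under 20 kb from a start site, and knockout-only peaks lay at a median of 8809 bp. If peaks lack a line because they lie farther away, an unlisted parental peak could overlap a knockout-only peak mainly near that limit. Such a gap by itself does not show an overlap. Of the 2278 knockout-only peaks, 753 (33.1%) lay between parental peaks with consecutive numbers, so that on this reading no numbered parental peak could overlap them. For parental-only peaks it was 815 (31.3%). Among the peaks over 100 kb from the other list, 112 of 917 knockout-only peaks (12.2%) were in that position, and 34 of 782 parental-only peaks (4.35%).

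**Figure D2:**
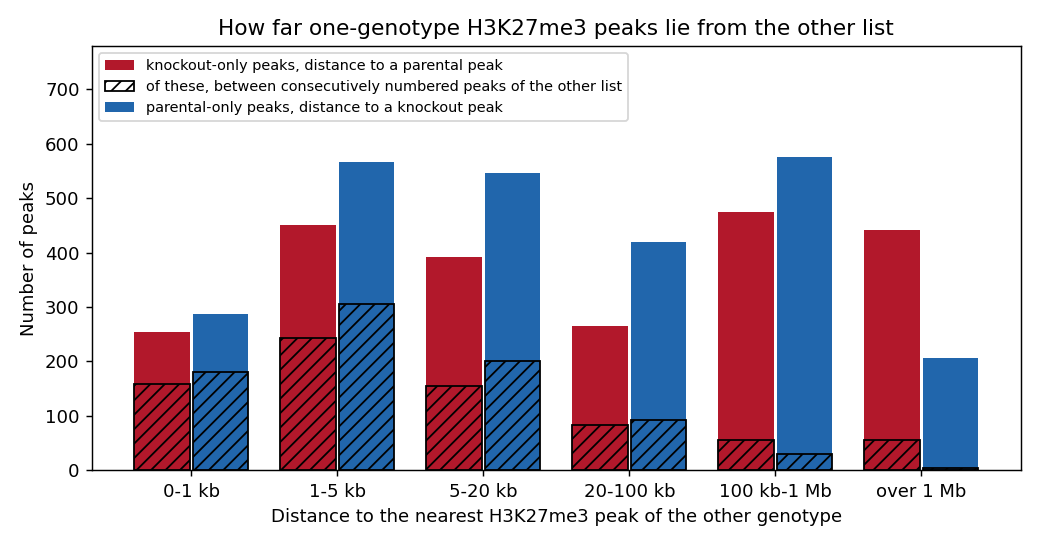
Number of peaks (y axis) by distance to the nearest H3K27me3 peak of the other genotype (x axis), for knockout-only peaks (red, left of each pair) and parental-only peaks (blue); hatching marks peaks between consecutively numbered peaks of the other list. The classes differ most beyond 1 Mb, with 442 knockout-only and 207 parental-only peaks.

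Some long stretches of the genome held many knockout peaks and hardly a numbered parental one. Between neighbouring listed parental peaks at least 1 Mb apart lay 365 stretches with 1094 knockout-only peaks (48.0%). In the mirror, 379 stretches between listed knockout peaks held 1000 parental-only peaks (38.4%). With 10 or more peaks there were 16 such stretches for the knockout and 5 for the parental list, and the fullest held 52 and 14 peaks. The rule fixes the listed parental count in a stretch at 0, but not the parental numbers without a line, which it did not use. Those numbers still come from the same parental list and library. The stretches were taken as long parental gaps and ordered by their knockout-only peaks, which can favour low parental numbers in the fullest. They are therefore no independent support. At least 1 such parental number lay in 323 of the 365 stretches (88.5%), and at least 1 such knockout number in 347 of the 379 mirror stretches (91.6%). Of the stretches with 5 or more peaks, 8 of 51 held 0 parental numbers, and 3 of 53 in the mirror held 0 knockout numbers.

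The fullest stretch ran over 12.2 Mb of the short arm of chromosome 12, chr12:14117977-26275962, with 52 knockout-only peaks covering 68976 bp. From its first to its last peak the knockout numbering advanced by 190 peaks, listed or not, and the whole stretch held 2 parental numbers without a line. Its peaks crowded over the SLCO1 genes, liver and brain transporters of organic anions, where SLCO1C1, SLCO1B3, SLCO1B7, SLCO1B1 and SLCO1A2 were each the nearest gene of at least 1 peak. Others were nearest to IAPP, the islet hormone amylin, to KCNJ8 and ABCC9, which together form a potassium channel, and to RERG and PTPRO, which encode a Ras-like protein and a receptor phosphatase. SOX5, a chondrocyte and neural factor, had 4 peaks of 4126 bp within 20 kb, and GRIN2B, an NMDA receptor subunit, had 2 of 2196 bp. Genes in these lines other than SLCO1C1, SLCO1A2, IAPP, ABCC9, SOX5 and GRIN2B were named after their values were seen.

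Beyond a single listed parental peak the same arm and the start of the long arm continued in that state. The stretch chr12:26276539-51991457 held 20 knockout-only peaks, 92 knockout numbers and 1 parental number without a line over 25.7 Mb. Its widest peak, 2874 bp, was nearest OR8S1, an olfactory receptor gene. The sources used here give no copy number, and no cause of the missing parental peaks was tested. H3K4me3 peaks were listed there in both genotypes, 253 in knockout and 346 in parental cells, a ratio of 0.731. In the 12.2 Mb stretch they were 59 and 92, a ratio of 0.641, beside 0.745 for all H3K4me3 peaks.

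On chromosome 6, chr6:24349792-29592301 held 21 knockout-only peaks, 31 knockout numbers and 0 parental numbers. It includes SCGN, and OR2J3 and other olfactory receptor genes at its end. The stretch chr6:52008707-71008225 held 17 peaks and 90 knockout numbers, again with 0 parental numbers. BMP5, a bone morphogenetic protein, had 3 of its peaks, summing to 4374 bp, the widest 2427 bp.

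Chromosome 11 had a stretch over the matrix metalloproteinase cluster. The stretch chr11:101776541-107471427 held 17 knockout-only peaks, 77 knockout numbers and 2 parental ones. The widest, 2759 bp, was nearest MMP3, stromelysin, and one of 1290 bp spanned the start site of MMP12, macrophage elastase. MMP10, MMP13 and MMP27 were nearest genes of others. MMP8, the collagenase of neutrophil granules, had 3 knockout-only peaks of 1075 bp within 20 kb, 807151 bp or more from any parental peak, and no listed promoter H3K4me3 in either genotype. Further along, chr11:122858193-123883291 held 14 peaks, 17 knockout numbers and 0 parental ones, over a group of olfactory receptor genes; stretches on chromosomes 13 and 12 held as many, with a smaller summed width. There OR8D4 had 6 peaks of 6936 bp and OR10S1 had 4 of 6686 bp.

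Other full stretches had more parental numbers without a line. On chromosome 1, chr1:61304791-68302421 held 18 knockout-only peaks with 83 knockout and 13 parental numbers. On chromosome 4, chr4:72186021-90797903 held 17 with 120 knockout and 12 parental numbers, among them 2 peaks of 3083 bp at BMP3. A second stretch on chromosome 1, chr1:70242124-94572477, held 15 peaks with 191 knockout and 11 parental numbers, its widest the 3157 bp peak nearest BARHL2. The fullest parental-only stretch, chr10:118085644-122369620, held 14 parental-only peaks, with 61 knockout numbers without a line and 110 parental numbers.

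**Figure D3:**
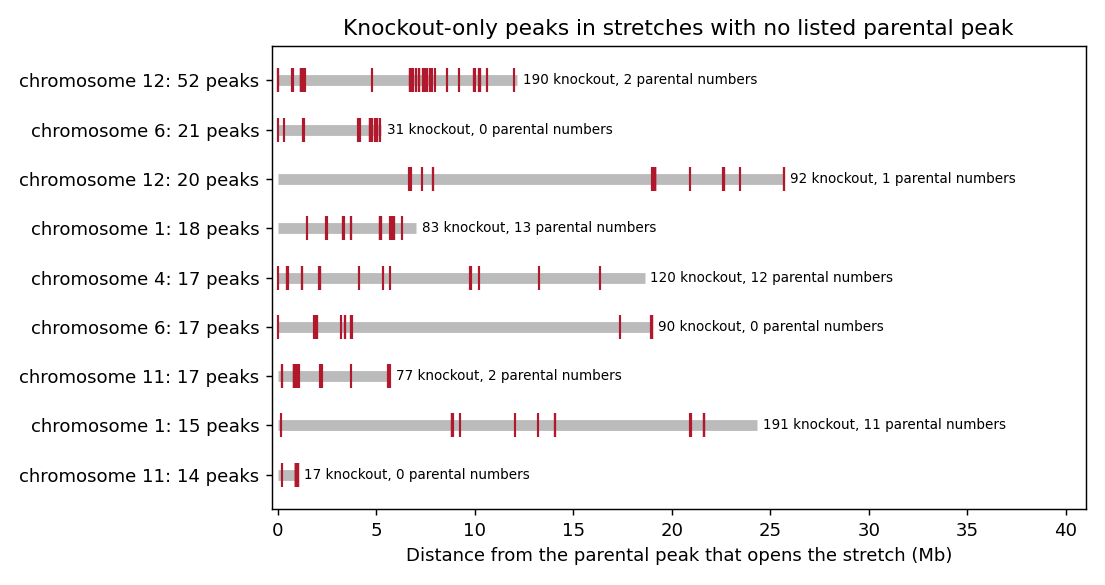
The 9 stretches with the most knockout-only peaks between neighbouring listed parental H3K27me3 peaks, drawn to scale as grey bars from the parental peak that opens each (x axis, Mb). Red ticks are knockout-only peaks, and the words beside each bar give the knockout numbers from first to last tick and the parental numbers without a line, 190 and 2 in the fullest.

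By chromosome, knockout-only peaks made up from 52.0% of the listed knockout peaks on chromosome 19 (13 of 25) to 80.6% on chromosomes 12 (175 of 217) and 3 (170 of 211). On chromosome 21 all 10 were knockout-only. Chromosome 11 held the most, 222. These chromosomes were named after their values were seen.

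Most knockout-only peaks were single, and some formed clusters. With gaps of 20 kb or less, 1201 (52.7%) had no knockout-only neighbour, and 140 clusters of at least 3 held 517 peaks (22.7%). Of these clusters 55 enclosed a parental peak and 85 did not, and 51 lay over 100 kb from any. Parental-only peaks were clustered more, with 798 (30.7%) in 215 clusters. No H3K4me3 peak lay inside 136 of the 140 clusters in the knockout list and inside 133 in the parental list.

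The 5 clusters with the largest summed width lay at microRNA, transporter, muscle, islet and SOX genes. At chr6:72070420-72137607, 10 knockout-only peaks of 309 to 2262 bp summed to 14018 bp, with 2 parental peaks between them. This cluster lay around MIR30C2 and MIR30A, whose 5p products share the seed shown above, and LINC00472. Start sites of both microRNA genes were spanned, by peaks of 1729 and 1726 bp. Within 20 kb of MIR30A lay 6 knockout-only peaks of 9748 bp, and no listed parental peak. For MIR30C2 it was 5 of 6691 bp, against 784 bp of parental peak.

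At SLCO1C1, chr12:20837259-20869261, 6 peaks summed to 13808 bp and covered 43.1% of 32.0 kb, with the nearest parental peak 5407 kb away. Further along the same stretch, at IAPP and SLCO1A2, 5 peaks summed to 9866 bp, 4712 kb from a parental one. The peak over the IAPP start site was 1393 bp wide.

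At MYF6 and MYF5, master regulators of skeletal muscle, chr12:81084028-81155634 held 10 knockout-only peaks of 12280 bp with 4 parental peaks in between. MYF5 had 5695 bp of knockout-only peaks within 20 kb, against 3102 bp of parental peaks. Both genotypes carried the mark over this locus, and 1 further knockout peak there overlapped a parental one.

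At SOX6, chr11:16414816-16443767, 6 peaks of 9575 bp enclosed 1 parental peak. SOX6, a factor of muscle, cartilage and red cell development, had 11216 bp of knockout-only peaks within 20 kb of its start sites, plus 701 bp of overlapping knockout peak, against 3141 bp of parental peaks.

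**Figure D4:**
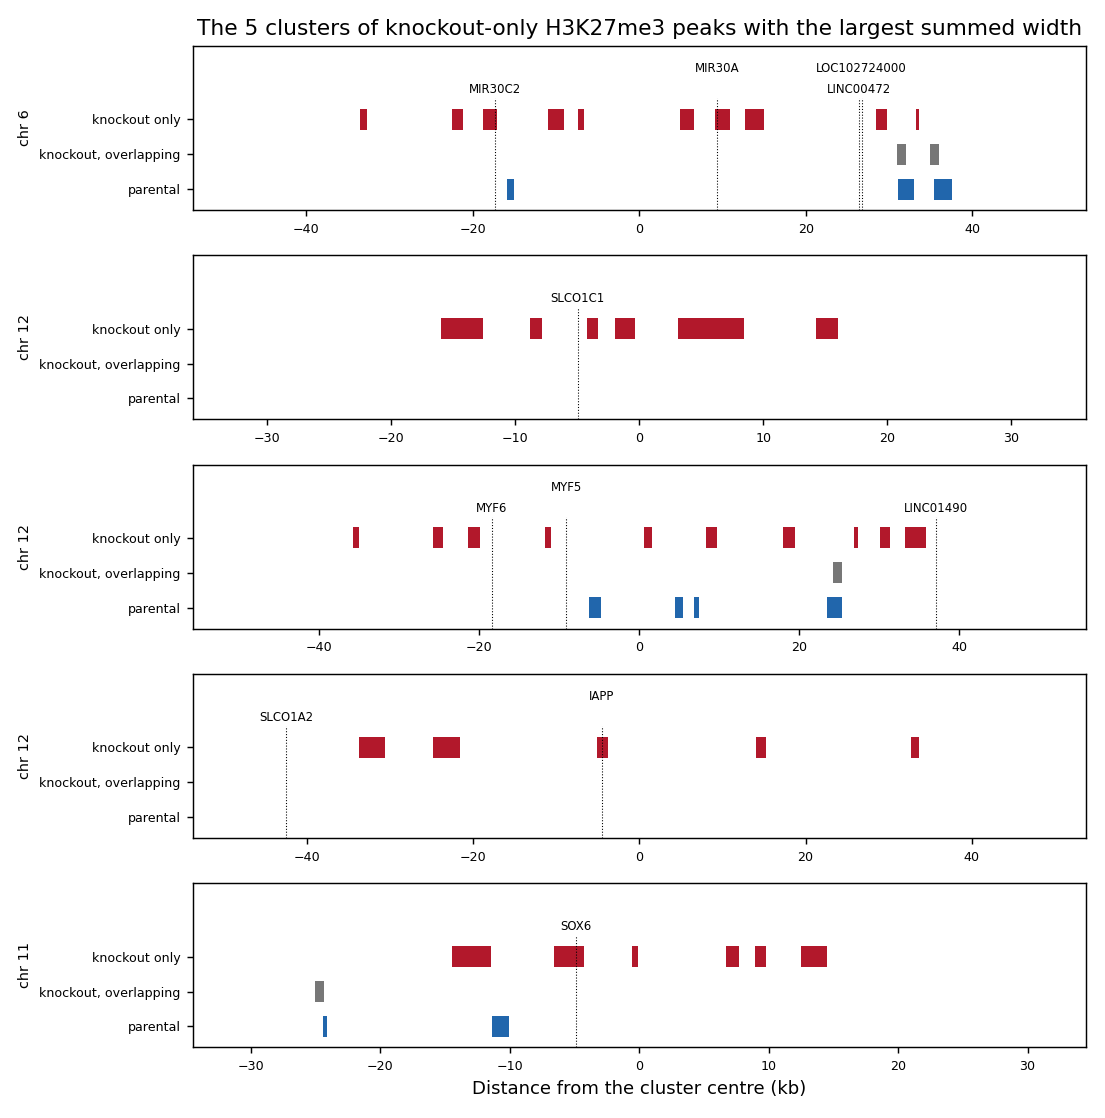
Maps of the 5 clusters of knockout-only peaks with the largest summed width, with distance from the cluster centre in kb (x axis) and rows for knockout-only peaks (red), knockout peaks that overlap a parental one (grey) and parental peaks (blue); dotted lines are start sites. The SLCO1C1 and IAPP clusters have no listed parental peak, and the MYF5 cluster has 4 between its 10 knockout-only peaks.

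Knockout-only peaks were spread over the 20 kb around start sites that the lists cover. The median distance from peak centre to the nearest listed start site was 8809 bp, 7981 bp for overlapping knockout peaks and 9051 bp for parental-only peaks. Within 1 kb lay 126 (5.53%) and within 5 kb 675 (29.6%). Within 20 kb they reached 1887 gene symbols, 10.4% of 18086, and within 5 kb 642 (3.55%). Parental-only peaks reached 1997 (11.0%), and 822 genes had both kinds, 43.6% of the first and 41.2% of the second.

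Peaks of both genotypes often stood near the same gene at different positions. Of the 1887 genes, 952 (50.5%) had no parental H3K27me3 line at all. Of the 642 genes within 5 kb, 139 (21.7%) also had a parental-only peak in that range. A start site lay under a knockout-only peak for 71 genes and under a parental-only peak for 69, and 1 gene was in both groups. By the rule these kinds of peak do not overlap, so a gene enters both groups only through separate start sites. Nothing is read from that count, nor from the differing positions.

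The start sites under the widest knockout-only peaks after ARHGAP32, CCDC181 and IGF2BP2 belonged to genes of nerve, gland and other tissues. CPLX4, a complexin of retinal synapses, lay under 3352 bp and the pseudogene A2MP1 under 3244 bp. PTH lay under 2737 bp, 218752 bp from a parental peak, with no parental number in between. MIR3666 lay under 2602 bp, MTUS2, a microtubule protein gene, under 2538 bp, NXPE4 under 2403 bp and C8orf86 under 2360 bp. NEUROD4 lay under 2287 bp at chr12:55413467-55415753, with 2193526 bp to the nearest parental peak and 0 parental numbers in between. RXRG lay under 2221 bp and PAX2, a kidney and eye factor, under 1716 bp.

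Both marks met at few knockout-only peaks. H3K4me3 overlapped 14 of them in both genotypes, 2 in the knockout list alone (nearest SCN8A and EOMES) and 11 in the parental list alone. Overlapping knockout H3K27me3 peaks met H3K4me3 more often, 28 (2.93%) in the knockout and 44 (4.60%) in the parental list. For parental-only peaks it was 24 (0.922%) and 45 (1.73%).

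Of the 14, the widest was that of PLAG1, where H3K4me3 covered 147 bp of the peak in knockout and 182 bp in parental cells. The peak nearest BARHL2, a neural homeobox gene, had 80 and 366 bp. Its centre lay 14827 bp from the start site, and BARHL2 had no listed promoter H3K4me3 in either genotype. The peak nearest HS6ST3, a heparan sulfate enzyme, had 168 and 24 bp. NEO1, a netrin receptor, had 205 and 430 bp, and LBH, a limb and heart regulator, 450 and 459 bp. At DUSP1, whose CG-rich promoter is shown above, a peak of 1621 bp spanned the start site, with H3K4me3 over 378 bp in knockout and 360 bp in parental cells. Among the 14, those nearest TMEM86A, DNAJC22 and DLK2 were the other peaks that spanned a start site.

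Genes near knockout-only peaks had little promoter H3K4me3 in either genotype. A promoter was counted as marked with a peak centre within 5 kb of a start site or a peak over it. Over all symbols 62.9% were marked in the knockout and 71.3% in the parental list. Of the 1887 genes with a knockout-only peak within 20 kb, 267 (14.1%) were marked in the knockout and 340 (18.0%) in the parental list. Of the 71 genes with a spanned start site it was 9 (12.7%) and 15 (21.1%). A gene with no line of either mark is not among the symbols of the lists, which raises the shares over all symbols. The shares of genes with a knockout-only peak are not changed by this.

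Where a parental H3K4me3 mark existed, it was missing from the knockout list at a higher share of these genes. Over all genes 1709 of 12899 marked parental promoters (13.2%) had no knockout H3K4me3. Among genes with a knockout-only peak within 20 kb it was 84 of 340 (24.7%, 20.4 to 29.6), and within 5 kb 23 (22.3%). Where the start site was spanned it was 6 of 15 (40.0%, 19.8 to 64.3). For parental-only peaks it was 42 of 130 (32.3%) within 5 kb, and 3 of 22 (13.6%) where they spanned the start site. Where both genotypes had the mark, the log2 ratio of knockout to parental H3K4me3 width had a median of -1.05 with a knockout-only peak within 20 kb, -0.98 within 5 kb and -1.20 for the 9 with a spanned start site. It was -0.67 with an overlapping knockout peak and -0.86 with a parental-only peak within 5 kb, beside -1.01 over all genes. The parental H3K4me3 of genes with a spanned start site was narrow, with a median of 717 bp against 1552 bp over all genes; the part of width in the loss was not tested.

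The 6 genes had parental H3K4me3 of 156 to 1036 bp and none in the knockout list, each with a knockout-only H3K27me3 peak over a start site. KCNN1, a calcium-activated potassium channel, had 1036 bp of H3K4me3 in parental cells, and a knockout-only H3K27me3 peak of 863 bp. IGSF3 had 530 bp, LRP4, an agrin receptor of muscle, 452 bp, TCF7L2, a transcription factor of WNT signalling, 260 bp, DOCK9 191 bp and DMPK, the myotonic dystrophy kinase, 156 bp. Parental H3K4me3 overlapped the knockout-only peak itself by 490 bp at KCNN1, 221 bp at IGSF3, 452 bp at LRP4 and 130 bp at TCF7L2. At DOCK9 and DMPK no H3K4me3 peak overlapped it. The other 9 genes kept a promoter H3K4me3 mark in both lists, narrower in the knockout list for 7 and wider for 2. GNG8 had 320 bp in knockout and 1380 bp in parental cells, and PAX2 270 and 717 bp. The wider ones were IGF2BP2, with 286 bp in knockout and 181 bp in parental cells, and SMPDL3A, with 563 and 328 bp. All but IGF2BP2 were named after their values were seen.

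Gene lists are given as the share of their members in the files with a knockout-only peak within 20 kb, beside 10.4% of all symbols and beside the parental-only share. A gene without H3K4me3 is in the files only if it has an H3K27me3 line, so the shares of silent families are raised. For single genes below, H3K27me3 base pairs and the absence of a listed peak refer to 20 kb around their listed start sites. Over all RefSeq symbols instead, where 5.58% had a knockout-only peak, zinc finger (1.63%), granule protein (3.70%) and long intergenic RNA genes lay below that share. So did the lists at 0%, those of myeloid transcription factors, myeloid surface receptors, Polycomb and demethylase genes, and ribosomal and housekeeping genes. Several lists of developmental transcription factors lay above 10.4%, while the intervals of the HOX (6.65 to 30.9%) and of the T-box, GATA and nuclear receptor genes (5.86 to 24.7%) included it. Of 11 SOX genes in the files 6 (54.5%) had one, against 3 for parental-only peaks. Of 34 basic helix-loop-helix factors it was 11 (32.4%), against 5. NEUROD4 had 2602 bp and no listed parental peak, and MYF6 5036 bp, against 1556 bp of parental peak.

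Of 84 homeobox genes outside HOX, 24 (28.6%) had a knockout-only peak and 32 a parental-only one. ZFHX3, a neuronal homeobox factor, had 1 knockout-only peak of 3642 bp, no listed parental H3K27me3 peak, and promoter H3K4me3 of 431 bp in knockout against 2203 bp in parental cells. Of 33 HOX genes 5 (15.2%) had a knockout-only peak, all in the HOXB cluster, and 0 a parental-only one. HOXB6, HOXB7 and HOXB8 shared 1 peak of 1508 bp at chr17:46701249-46702756, 769078 bp from a parental peak.

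Of 32 forkhead genes, 7 (21.9%) had a knockout-only and 3 a parental-only peak. FOXP2, a factor of brain and lung development, had 6 knockout-only peaks of 6508 bp. No parental H3K27me3 peak was listed within 20 kb of its listed start sites, and promoter H3K4me3 of 338 bp was in the knockout list alone. Of 48 T-box, GATA and nuclear receptor genes, 6 (12.5%) had a knockout-only and 10 a parental-only peak. NR3C2, the mineralocorticoid receptor, had 2700 bp and promoter H3K4me3 of 448 bp in knockout against 1251 bp in parental cells.

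The intervals of the ligands and the cadherins included the share of all symbols, and that of the collagens lay above it. Of 54 WNT, FGF, BMP and hedgehog ligands 9 (16.7%) had a knockout-only and 11 a parental-only peak. WNT16 had a knockout-only peak of 2512 bp and 445 bp of overlapping knockout peak, against 258 bp of parental peak. Of 40 cadherins 7 (17.5%) had one, against 10. CDH10, a neural cadherin, had 2243 bp and DSG3, a desmosomal cadherin of skin, 2646 bp, both with no listed parental peak. Of 28 collagen and laminin genes 11 (39.3%) had one, against 7. COL9A1 had 3451 bp of knockout-only and 1604 bp of overlapping knockout peaks, against 630 bp of parental peaks. COL12A1 had 2175 bp, against 345 bp of parental peak.

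Neuronal genes formed large groups. Of 33 neurotransmitter receptor genes 12 (36.4%) had a knockout-only and 8 a parental-only peak. GLRA3, a glycine receptor subunit, had 4 of 7543 bp, against 3360 bp of parental peaks. GRM8, a glutamate receptor, had 3421 bp of knockout-only and 2693 bp of overlapping knockout peaks, against 6722 bp of parental peaks. Of 82 synaptic and axon guidance genes 20 (24.4%) had one, against 17, with SLITRK3, a synapse-inducing membrane protein, at 3043 bp. Of 90 potassium, sodium and calcium channel genes 23 (25.6%) had one, against 30. SCN1A, a neuronal sodium channel, had 5148 bp of knockout-only peaks, against 11766 bp of parental peaks.

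Clustered families of sensory and epidermal genes had high shares in both genotypes. Of 170 olfactory receptor genes in the files 103 (60.6%) had a knockout-only peak, 120 distinct peaks in all, and 90 (52.9%) a parental-only one. Of all 408 RefSeq olfactory receptor symbols the 103 are 25.2%, beside 5.58% of all RefSeq symbols. Of 77 keratin and keratin-associated genes 42 (54.5%) had one, against 34, but those 42 genes shared 26 peaks. KRT222 had 5 knockout-only peaks of 5444 bp, against 1019 bp of parental peak. Of 13 taste, vomeronasal and trace amine receptor genes 8 had a knockout-only and 8 a parental-only peak. The epidermal cornified envelope genes stood the other way, with 13 of 41 (31.7%) near a knockout-only peak and 37 (90.2%) near a parental-only peak. Of the same 41 genes 38 also lay within 20 kb of a knockout peak that overlapped a parental one, so the family carried listed peaks in both genotypes.

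Among non-coding genes, 93 of 377 long intergenic RNA genes (24.7%) had a knockout-only and 105 a parental-only peak. LINC00456 had 5994 bp and LINC00987 5906 bp, both with no listed parental H3K27me3 peak. Of all RefSeq symbols of this kind the 93 are 4.41%, below the 5.58% of all RefSeq symbols, so the order depends on the denominator. Of 998 microRNA genes 121 (12.1%) had a knockout-only and 157 a parental-only peak. MIR548H3 had 7012 bp of knockout-only peaks, against 4298 bp of parental peaks.

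Few listed genes of the myeloid lineage had a knockout-only peak, and the lists are too small to set them apart from the 10.4% of all symbols. Of 26 myeloid transcription factors 0 had one (95% interval up to 12.9%), and of 21 myeloid surface receptors 0 (up to 15.5%), with 1 of each near a parental-only peak. Of 22 granule protein genes MMP8 alone had one (4.55%, 0.807 to 21.8). Of 91 ribosomal and housekeeping genes 0 had one (up to 4.05%), and of 37 Polycomb and H3K27 demethylase genes 0 (up to 9.41%), against 2 and 1 near parental-only peaks. KDM6B and KDM6A themselves had no listed H3K27me3 peak of either genotype within 20 kb. Of 20 markers of lymphoid, erythroid and megakaryocyte cells, 3 had a knockout-only peak, EBF1 and RAG1 of lymphocytes with 1381 and 947 bp and GYPB of red cells with 403 bp. EBF1 and RAG1 also had parental peaks, of 1671 and 8526 bp.

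Of 241 solute carrier genes 27 (11.2%) had a knockout-only peak, near the 10.4% of all symbols, against 30. SLC14A2, a urea transporter, had 6773 bp of knockout-only peaks, against 4378 bp of parental peaks. Of 16 serpin genes 2 had one, SERPINB11 with 4238 bp and SERPINB7 with 3049 bp. Of 377 ZNF zinc finger genes 9 (2.39%) had one, against 11, with ZNF385B at 7 peaks of 5221 bp beside 11079 bp of parental peaks.

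**Figure D5:**
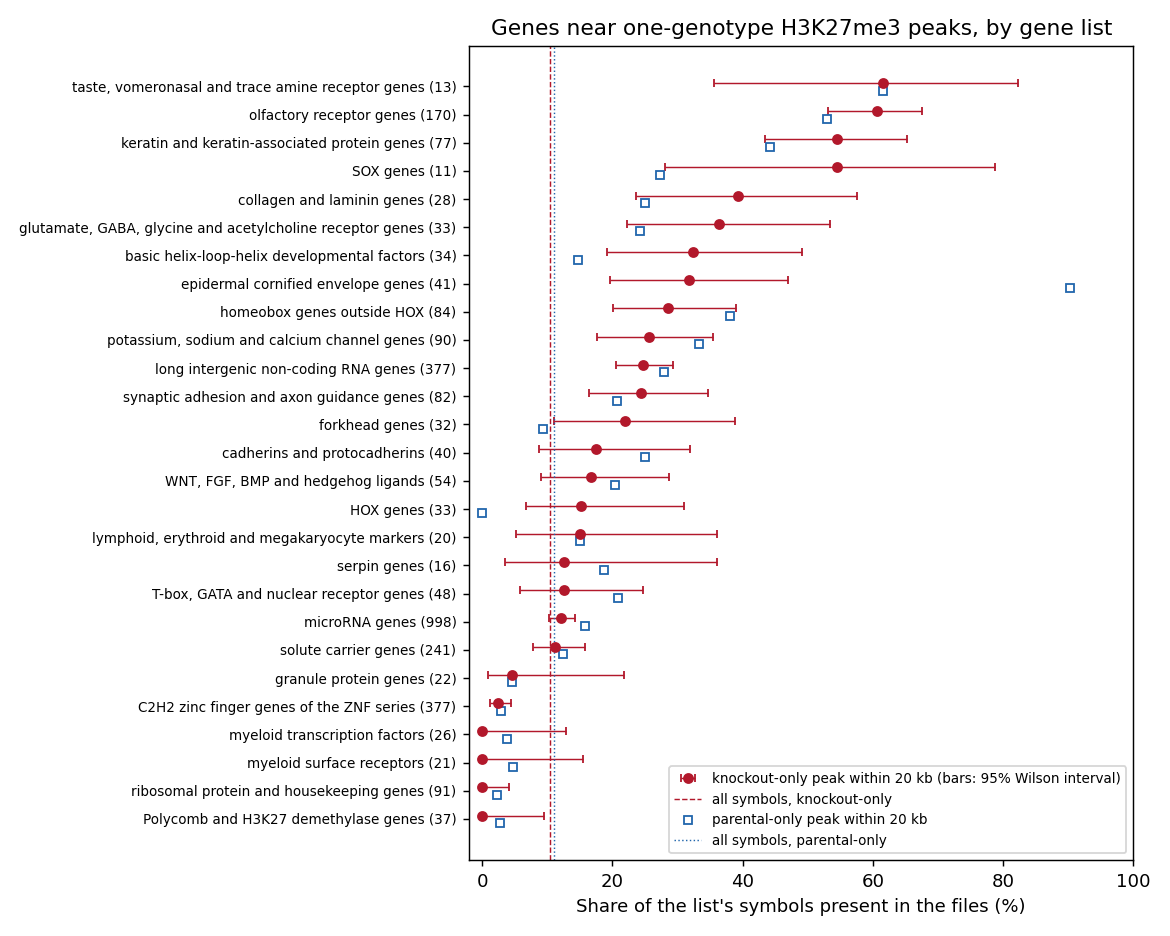
Share of each list's symbols present in the files (x axis, percent) with a knockout-only peak (red points, bars 95% Wilson intervals) or a parental-only peak (blue squares) within 20 kb; dashed and dotted lines are the shares of all symbols, 10.4% and 11.0%, and the number in brackets is the list's size in the files. Sensory receptor genes lie highest in red, and cornified envelope genes at 90.2% in blue.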

How the data were processed

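HL-60 ChIP-seq peak lists for H3K27me3 and H3K4me3, 1 per genotype and mark, were analysed, and the 2 inputs were not. The tools named are MACS2 2.1.1, BWA 0.7.10 and SAMtools, with hg19 as the build, per the submitters' processing notes. Settings, and whether inputs served as controls, are not given in the sources used here. Per the file headers, the authors paired each peak with RefSeq transcripts, with gene symbol, distance and score. Tested on the values, the distance is the peak centre minus the start site in genome direction, always under 20 kb. The score deposited by the authors depends on that distance alone and was not used. The lists hold no reads or heights, so depth is unknown, and a deeper or cleaner library could list more and wider peaks. Peaks with no start site within 20 kb cannot be seen. Starts were read as counted from 0, which is not stated, and are printed as hg19 positions counted from 1.

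Overlap meant at least 1 bp and was checked against bedtools 2.31.1 and on simulated data; tables were made with Python 3.11.15 and pandas 2.3.3. Clusters were runs of at least 3 knockout-only peaks with gaps of 20 kb or less, and stretches spanned at least 1 Mb between neighbouring listed peaks of the other genotype. The 27 gene lists, the members and the comparisons were chosen with earlier results of these data known. With 1 library per group no test was run and no p-value is given; shares carry Wilson 95% intervals. RefSeq tables of GRCh38.p14, used for names and sequences only, held 16252 of the 18086 symbols.

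The rule for named genes took the nearest genes of the 10 widest peaks, the genes of the 5 clusters with the largest summed width, up to 3 members of each list with the most knockout-only base pairs, and the 10 genes with the widest peak over a start site. It also took KDM6B, KDM6A, the nearest genes of the 3 peaks on either side of the overlap limit, and those of the 5 widest peaks with H3K4me3 in both genotypes. Some genes that the rule names are not reported here. Other genes, and all single stretches and chromosomes, were named after their values were seen. Alternatives were the overlap limit, extended parental peaks, lists of equal length, peak joining, peak width, the start site window, the cluster gap and the H3K4me3 window.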

Additional observations from a re-analysis of the deposited data

How the results depend on the processing

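Of 62 alternative values for the whole set, 45 stayed within the limits set for each (1.5 times for counts, the 95% interval for shares and medians) and 17 moved. The 45 include the joining of peaks 1 kb or less apart, which could change nothing. The smallest gap between listed H3K27me3 peaks was 1193 bp in the knockout and 1035 bp in the parental list. With parental overlap allowed up to 50% of the knockout peak, 2685 peaks were taken, and the median width was 1009 bp and the median distance to a parental peak 11068 bp. With parental peaks extended by 1 kb the distance was 49912 bp. With 5 kb it was 212082 bp, and 78 clusters were left. The first setting adds overlapped peaks and the extensions remove peaks near parental ones, which by construction moves the distance. Knockout peaks of at least 1000 bp left 1045 peaks with a median width of 1406 bp, 8276 bp from a start site, 1023 genes and 27 clusters. Peak centres within 15 kb of a start site lay at a median of 6590 bp. Genes numbered 642 within 5 kb and 71 with a spanned start site. H3K4me3 within 1 kb was found for 1.62% in the knockout and 2.37% in the parental list. An alternative chosen after seeing the data kept the peaks between consecutively numbered parental peaks, which left 753, at 7101 bp from a start site. The cause of that last shift was not tested. Lists of equal length gave 2316 knockout-only peaks. The HOX count fell to 1 within 5 kb, forkhead genes to 1, collagen and laminin genes to 0 and olfactory receptor genes to 40. No paired analysis was possible because each genotype has 1 library per mark. Unknown depth limits every count of peaks listed in 1 genotype.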
